A study of Mus musculus with 16 samples.

Results

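Titin, encoded by Ttn, is the giant spring protein of the sarcomere, the contractile unit of striated muscle. Each molecule runs from the Z-disc, where it is anchored, through the elastic I-band and along the myosin filaments of the A-band to the M-band. In the heart, splicing of the I-band exons makes a short, stiff isoform (N2B) and longer, more compliant isoforms (N2BA) that keep more immunoglobulin-like (Ig) and PEVK exons, and the splicing factor RBM20 removes many of these exons. A further short isoform, novex-3, ends within the I-band.

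The exons of this gene were followed in hearts of mice without CAP2, an actin-binding protein of the cyclase-associated protein family. The members are the deposited exon rows with the symbol Ttn and an exon identifier: 1627 rows, which hold 388 exons of distinct coordinates among the 344996 of the whole table. Of these, 347 match the exons of the longest Ttn transcript, which are numbered here from 1 at the 5′ end to 347. The other 41 are alternative forms, among them the terminal exon of novex-3. Ttn (ENSMUSG00000051747) lies on the minus strand of chr2:76703980-76982547 (mm10).

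The hearts came from 86-week-old female C57BL/6 mice of 2 genotypes, wild type (WT) and CAP2 -/-, with 3 heart libraries each. The labels name no Cre line or tissue restriction for the CAP2 -/- mice. Hearts were flash frozen, and libraries were made from total RNA with an Ion Total RNA-Seq kit. Nothing in the labels ties the replicates to separate animals, so the p-values measure the spread between these libraries. Cap2 itself stood at 197, 217 and 228 CPM (reads scaled to library size) in the WT libraries and at 8.34, 16.2 and 12.0 CPM in the CAP2 -/- libraries.

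Library totals ran from 10750175 to 27440478 estimated reads, and Ttn took 0.295% to 0.460% of them. The markers of cardiomyocytes summed to 75673 to 83164 CPM in WT and 67771 to 78110 CPM in CAP2 -/- hearts. Summed skeletal muscle markers reached 3137 to 4706 CPM and 4380 to 5684 CPM, mostly Ckm, which the heart also expresses; Myh1, Myh2 and Myh4 each stayed under 12 CPM. Of all 16297 genes tested, 0.841% were called higher and 0.509% lower at an edgeR adjusted p under 0.05. Of the 5 atrial markers, 1 was called, Nppa, which ventricles under strain also express. The other 4 summed to 7.36 to 8.62 CPM in WT and 12.1 to 14.96 CPM in CAP2 -/- hearts, without overlap. Summed fibroblast markers were 676 to 735 CPM in WT and 802 to 948 CPM in CAP2 -/- hearts, without overlap, and 0 of the 5 were called. Those of smooth muscle and pericytes, endothelium, and macrophages and lymphocytes overlapped. Erythroid markers reached 10233 CPM in CAP2 -/- replicate 1 and 1376 to 4358 CPM in the other libraries. The part of these markers in the results on Ttn was not tested.

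The sequences below mark where the reads changed along the transcript, and come from the GENCODE transcript of the mm10 build, minus strand, written 5′ to 3′. Exon 46, the N2B exon, encodes the unique cardiac spring element. Exons 47 and 48 flank the boundary at which the short cardiac transcript of the annotation skips to exon 202, and exon 87 begins the later middle Ig exons. The first 60 bases of exons 46, 48 and 87 and the last 60 bases of exon 47 are shown (chr2:76909894-76909953, chr2:76903567-76903626, chr2:76881780-76881839 and chr2:76906254-76906313).
N2B exon 46: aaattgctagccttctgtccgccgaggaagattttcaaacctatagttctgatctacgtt
exon 47: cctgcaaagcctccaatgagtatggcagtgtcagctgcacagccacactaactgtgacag
exon 48: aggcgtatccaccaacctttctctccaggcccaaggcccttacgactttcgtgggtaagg
exon 87: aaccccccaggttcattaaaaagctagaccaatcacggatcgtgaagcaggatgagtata

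PEVK exons are short and encode mainly proline, glutamate, valine and lysine, the codons of which are in capitals below. Exon 113 (chr2:76862800-76862859) and exon 204 (chr2:76816989-76817075) carried reads, exon 117 (chr2:76861097-76861177) carried none in any library, and exon 204 alone of the 3 is in the short cardiac transcript.
exon 113: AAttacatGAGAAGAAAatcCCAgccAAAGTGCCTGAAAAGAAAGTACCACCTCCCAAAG
exon 117: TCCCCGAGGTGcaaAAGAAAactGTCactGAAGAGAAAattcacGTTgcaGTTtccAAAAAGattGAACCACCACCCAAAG
exon 204: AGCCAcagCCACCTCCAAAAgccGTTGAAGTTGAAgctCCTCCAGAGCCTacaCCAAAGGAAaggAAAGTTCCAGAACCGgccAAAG

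The A-band was taken to start at exon 235, the first exon with a fibronectin type III motif (capitals, in a stretch at chr2:76796044-76796160). The titin kinase lies near the M-band, and its catalytic motif (capitals, in chr2:76713101-76713214) was found in exon 341. Exon 343 (chr2:76708159-76708315), in the M-band, had the highest density of reads in all 6 libraries.
exon 235: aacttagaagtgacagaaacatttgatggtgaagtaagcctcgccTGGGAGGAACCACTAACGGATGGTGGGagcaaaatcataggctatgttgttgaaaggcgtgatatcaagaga
exon 341: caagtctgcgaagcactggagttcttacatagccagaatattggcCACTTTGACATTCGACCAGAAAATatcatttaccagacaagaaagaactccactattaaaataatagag
exon 343: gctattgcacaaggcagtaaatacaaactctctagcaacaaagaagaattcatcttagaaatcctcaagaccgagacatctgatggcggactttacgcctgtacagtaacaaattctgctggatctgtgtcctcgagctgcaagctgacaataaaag

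The level of the whole gene did not pass the test. Ttn stood at 4212, 2919 and 3009 CPM in WT hearts and at 4784, 3262 and 3990 CPM in CAP2 -/- hearts, so the groups overlapped. The log2 difference was 0.25 (SE 0.17), with an adjusted p of 0.692 from edgeR's quasi-likelihood test over 16297 genes. It moved to 0.10 and 0.38 when CAP2 -/- replicates 1 or 2 were left out in turn, and to 0.44, 0.15 and 0.17 when WT replicates 1, 2 or 3 were. The authors' deposited table gives a log2 fold change of 0.24 with an adjusted p of 0.728. In whole hearts, a different number of cardiomyocytes and a different amount of Ttn RNA per cell cannot be told apart. The antisense gene Gm13938, which overlaps Ttn, is listed at 0 in all 6 libraries.

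Reads were spread very unevenly along the transcript, in the same outline in all 6 libraries. Density is given below as reads per kb of exon per 100000 Ttn exon reads of the library. Exons 1 to 45, which encode the Z-disc part and the proximal Ig domains, held 516 ± 46.03 (SD, n = 3) and 587 ± 30.5 in WT hearts for exons 1 to 28 and 29 to 45. The terminal exon of novex-3 (6520 bases, chr2:76913944-76920463) held 526 ± 75.0. Density then fell to 226 ± 25.7 in the N2B exon and 255 ± 26.6 in exon 47.

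The I-band exons separated into used and scarcely used blocks. Exons 48 to 86, early middle Ig exons, held 15.9 ± 3.5 in WT hearts. Exons 87 to 109, which end the middle Ig stretch and encode the N2A element, a docking site for ankyrin repeat proteins and calpain 3, rose to 264 ± 56.4. The first 4 PEVK exons, 110 to 113, held 289 ± 60.3, and the 88 exons from 114 to 201 held 7.0 ± 2.1. Of those 88, 40 had no read in any library and 80 averaged under 1 read. With 3 reads as the limit that a count of 0 allows, an exon without a read in a library made up at most 0.00257% to 0.00947% of its Ttn reads, counting error only. Exons 202 to 205, where the short cardiac transcript resumes, returned to 108 ± 45.9.

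Sequence repeats cover part of the empty PEVK block: 9.59% of its windows of 50 bases occur more than once in the transcript, against 0% in every other block. How reads from such windows were counted is not given in the sources used here, so the levels of exons 114 to 201 are uncertain.

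From the distal Ig exons to the M-band the density climbed steadily. In WT hearts, exons 206 to 234 held 127 ± 14.9 and the A-band exons 235 to 308 held 205 ± 29.6. The longest exon, 309 (17106 bases, chr2:76736064-76753169, A-band), held 630 ± 115 and exons 310 to 340 held 1983 ± 153. The kinase exon 341 (5437 bases, chr2:76708776-76714212) held 5004 ± 185 and exons 342 to 347 held 5978 ± 883. The cause of this climb was not tested, and levels of distant exons are therefore compared here only within a stretch or between libraries.

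**Figure D1:**
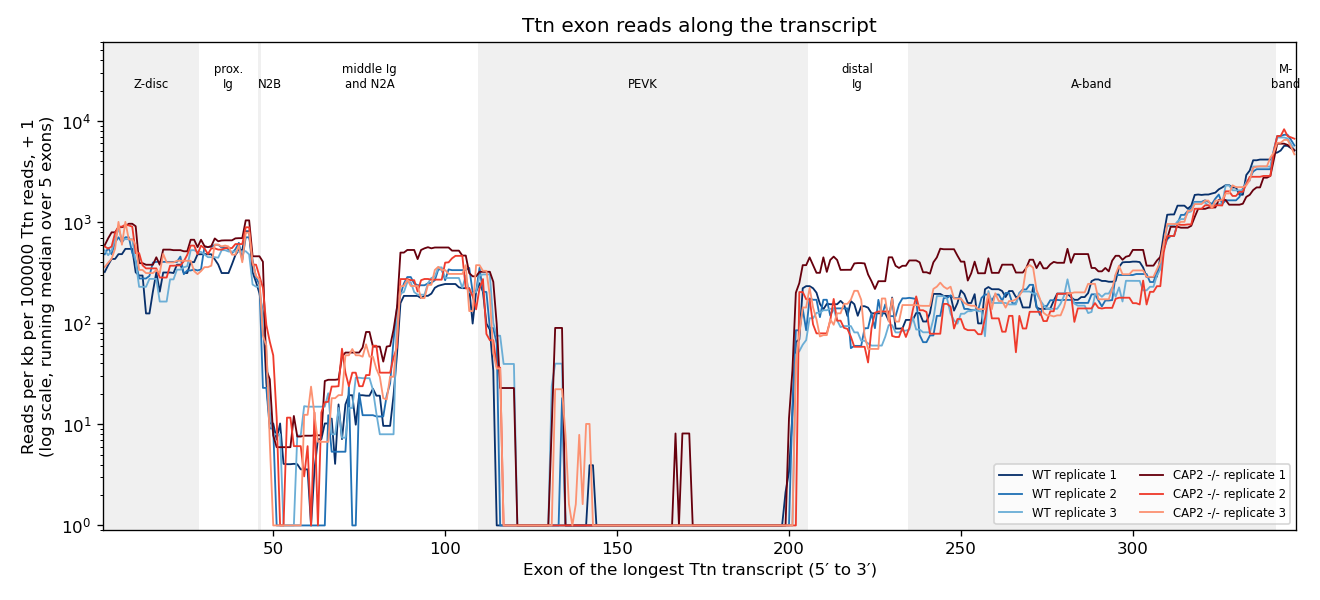
Density of reads along the 347 exons (x axis, 5′ to 3′) in reads per kb per 100000 Ttn reads plus 1, on a log axis, as a running median over 5 exons, one line per library. All 6 lines drop after the N2B exon, return at exons 87 to 113, fall again across most PEVK exons and climb to the M-band; CAP2 -/- replicate 1 (dark red) lies highest over most exons from 206 to 308.

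By sarcomere region, most of the reads fell in the A-band and M-band in both genotypes. Shares are given as percent of all Ttn exon reads of the library, and with 3 libraries against 3 the exact two-sided permutation test cannot go below p = 0.10. The A-band (exons 235 to 341) held 74.6%, 67.7% and 68.6% in WT and 65.1%, 64.0% and 69.8% in CAP2 -/- hearts (exact p = 0.30). The M-band (exons 342 to 347) held 14.0%, 18.2% and 18.5%, and 16.6%, 21.5% and 16.8% (exact p = 0.60). For both regions the groups overlapped. The kinase exon 341, counted here in the A-band, is the first M-band exon in the usual map of titin. With all its rows, as counted here, it held 26.1%, 28.1% and 27.3% of the Ttn reads in WT. The A-band difference, -3.98 percentage points, was -1.83 without WT replicate 1 and -2.12 without the kinase exon. The M-band difference, 1.39 percentage points, turned to -0.47 with the kinase exon counted in the M-band, to -0.05 without WT replicate 1 and to -0.21 without CAP2 -/- replicate 2.

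The N2B exon was the I-band region in which the genotypes separated. Its share was 0.519%, 0.638% and 0.636% in WT and 1.07%, 0.767% and 0.770% in CAP2 -/- hearts. Every CAP2 -/- library was above every WT library, and the means were 0.598% ± 0.068 and 0.870% ± 0.175 (SD, n = 3; exact p = 0.10, the smallest possible). The Z-disc exons separated too, at 3.35%, 4.06% and 3.76% against 5.12%, 4.08% and 4.17% (exact p = 0.10), with CAP2 -/- replicate 2 only just above WT replicate 2. This separation depended on the measure: as density, exons 1 to 28 held 470, 562 and 516 in WT and 728, 556 and 576 in CAP2 -/- hearts, which overlap (exact p = 0.20). As a share of the reads before the longest exon, the Z-disc difference turned from 0.73 to -0.13 percentage points (exact p = 1.00), and with rows that overlap no other its exact p was 0.30. After Benjamini-Hochberg adjustment over the 9 stretches (8 regions and the novex-3 exon), both exact p-values became 0.45.

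As whole regions, the other I-band stretches overlapped between genotypes. The proximal Ig exons held 2.29% to 2.58% in WT and 2.54% to 3.13% in CAP2 -/- hearts (exact p = 0.20). The middle Ig and N2A exons held 1.25%, 1.88% and 1.62% against 3.24%, 2.06% and 1.87% (exact p = 0.20), and the PEVK exons 0.212% to 0.280% against 0.256% to 0.511% (exact p = 0.30). Within the middle Ig stretch, the scarcely used exons 48 to 86 did not overlap: their density was 12.1, 16.9 and 18.8 in WT and 33.4, 29.1 and 25.0 in CAP2 -/- hearts. The means were 15.9 ± 3.5 and 29.2 ± 4.2 (SD, n = 3; exact p = 0.10, the smallest possible), and every CAP2 -/- library was above every WT library. The limits of this block were not planned in advance, and its p-value was not adjusted over the blocks compared. The novex-3 terminal exon, which is absent from the long isoforms, held 2.86% to 3.72% and 2.77% to 3.89% (exact p = 0.80).

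**Figure D2:**
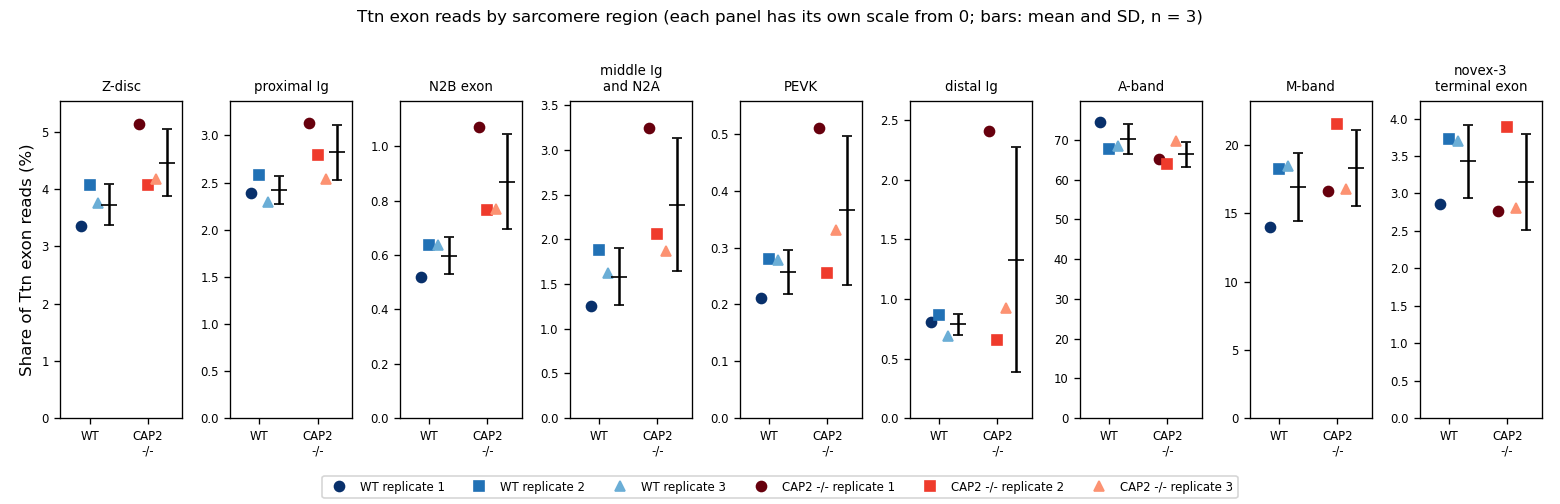
Share of Ttn exon reads in percent (y axis, a scale of its own from 0 in each panel) for each region, with 3 WT libraries (blue) and 3 CAP2 -/- libraries (red); bars are the mean and SD. The groups do not overlap for the Z-disc and the N2B exon, and CAP2 -/- replicate 1 is the highest point in the Z-disc and all 5 I-band regions.

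CAP2 -/- replicate 1 stood apart from the other 5 libraries in the middle of the gene. Its distal Ig share was 2.40% (exact 95% binomial interval 2.27% to 2.54%), against 0.803%, 0.868% and 0.685% in WT and 0.652% and 0.925% in the other CAP2 -/- libraries. Intervals of this kind cover counting error only. Its density was the highest of the 6 in 27 of the 29 distal Ig exons and in 68 of the 74 A-band exons from 235 to 308, but in 1 of the 31 exons from 310 to 340. The authors' estimates assign 2.601% of its Ttn exon reads to 1 transcript model (ENSMUST00000148747) that holds at most 0.0025% in the other libraries.

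Without that library several differences shrank. The CAP2 -/- mean went from 1.33% to 0.789% for the distal Ig exons (WT 0.785%), from 2.39% to 1.96% for the middle Ig and N2A exons (WT 1.58%) and from 0.366% to 0.293% for the PEVK exons (WT 0.257%). The N2B exon share without it was 0.769% against 0.598% (exact p = 0.10, 3 against 2 libraries). The Z-disc share without it was 4.12% against 3.72% (exact p = 0.20), and these groups still did not overlap.

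The balance of N2BA-type to common exons depended on which stretch it was set against. Exons 47 to 205 (middle Ig, N2A and PEVK) were taken as N2BA-type, although exons 47 and 202 to 205 are also in the short cardiac transcript. Their reads per kb divided by reads per kb in the A-band, came to 0.046, 0.074 and 0.064 in WT and 0.134, 0.084 and 0.073 in CAP2 -/- hearts (exact p = 0.20). The means were 0.061 ± 0.015 and 0.097 ± 0.032 (SD, n = 3), and the CAP2 -/- mean was 0.079 without CAP2 -/- replicate 1. Against the Z-disc exons the ratios were 0.122 to 0.151 and 0.150 to 0.203 (exact p = 0.20). Against the nearest common exons, the N2B exon and exon 47, exons 48 to 205 had ratios of 0.274, 0.338 and 0.304 in WT and 0.347, 0.285 and 0.292 in CAP2 -/- hearts (exact p = 1.00). These last means were 0.305 ± 0.032 and 0.308 ± 0.034.

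Neighbouring I-band blocks give the same quantity in smaller steps. Exons 87 to 109 were read at 1.05, 1.32 and 1.11 times the density of the N2B exon in WT and at 1.34, 1.095 and 1.03 times in CAP2 -/- hearts (exact p = 0.90). The scarcely used exons 48 to 86 were read at 0.062, 0.070 and 0.078 times that density in WT and at 0.083, 0.1003 and 0.086 times in CAP2 -/- hearts. These groups did not overlap (exact p = 0.10, the smallest possible), and the ratio was one of 9 such local ratios computed.

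**Figure D3:**
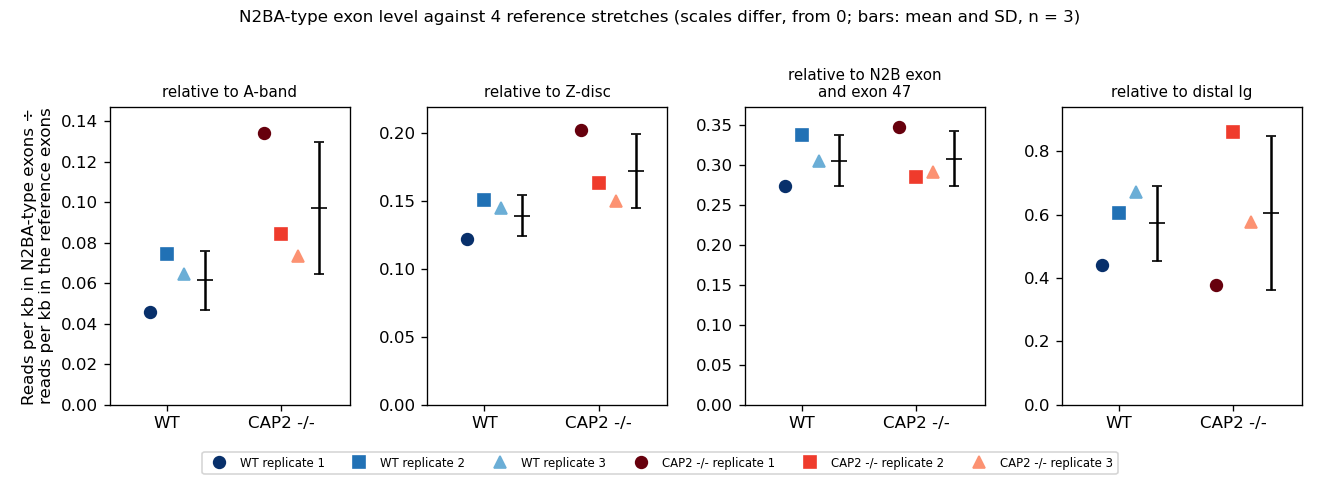
Reads per kb in N2BA-type exons divided by reads per kb in 4 reference stretches (y axes, each from 0), by library, with mean and SD. The CAP2 -/- mean is the higher against the A-band and the Z-disc, and the means are 0.305 and 0.308 against the N2B exon and exon 47.

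No single Ttn exon passed the test for changed usage. Usage here is the log2 difference of an exon relative to the whole gene, fitted by edgeR over 88189 exons of all genes, of which 0.0295% (26) were called at an adjusted p under 0.05. Of the 388 Ttn exons, 205 had enough reads to be tested and 0 were called (5 at an unadjusted p under 0.05, and 0 at either level with limma's voom). That is 2.44% of the tested Ttn exons at an unadjusted p under 0.05, against 2.72% of all exons. At the 0.0295% called over all exons, 0 calls among 205 says little about Ttn. The lowest adjusted p was 1.00, and the SE of a single exon ranged from 0.34 to 0.99 (median 0.58).

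Their direction varied along the gene. The log2 difference was above 0 for 150 of the 205 exons and below 0 for 55, with a median of 0.29 against -0.01 over all exons tested. In the Z-disc 24 of 25 tested exons lay above 0 (median 0.38), in the middle Ig and N2A stretch 22 of 24 (0.58), and in the distal Ig stretch 21 of 22 (0.80). In the A-band 60 of 102 lay above 0 (0.15), and in the M-band 6 of 10 (0.06). Exons of 1 transcript share their RNA molecules and the gene total, so these counts are not independent.

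The share of Ttn reads was higher in every CAP2 -/- library than in every WT library for 15 tested exons (7.32%), where 4.54% of all tested exons behaved so. It was lower in every CAP2 -/- library for 8 (3.90%), where 5.25% of all tested exons did. The 15 include exons 5, 9, 11, 14 and 25 of the Z-disc, the N2B exon, exons 87, 93, 96 and 104 of the middle Ig and N2A stretch and exon 204 of the PEVK stretch. The 8 lie in the A-band and M-band, between exons 315 and 345.

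**Figure D4:**
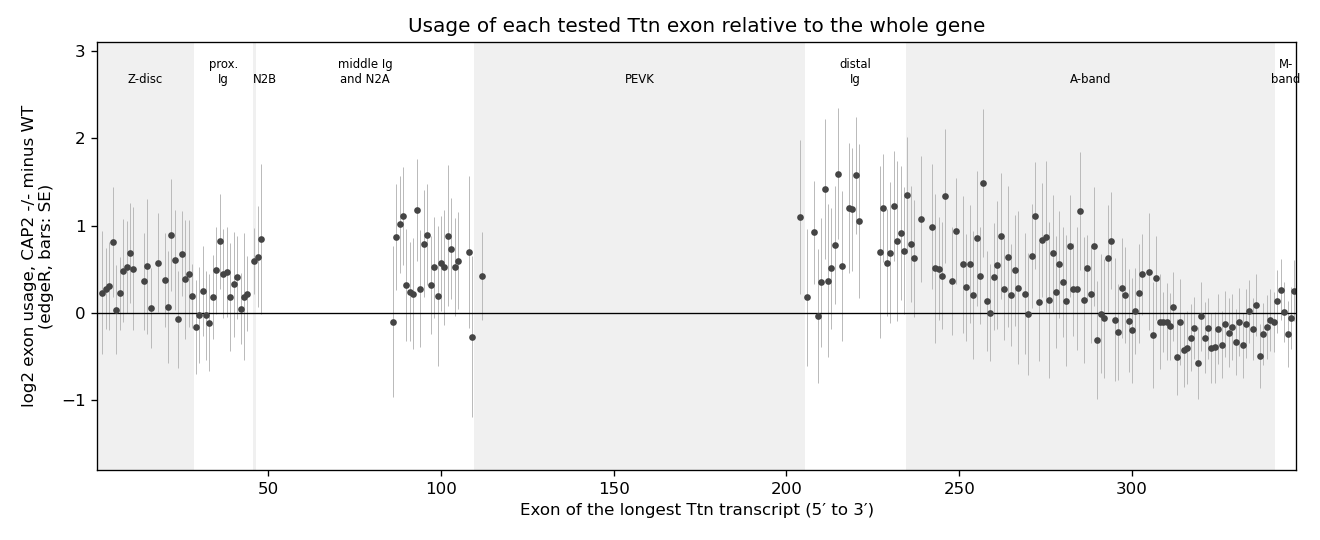
log2 difference in exon usage, CAP2 -/- minus WT (y axis), for each tested exon of the longest transcript against its number (x axis); bars are the SE. Most points from the Z-disc to the distal Ig stretch lie above 0, those from exon 310 to 340 mostly below, and no exon passed the test.

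Among single exons, the N2B exon had 607, 202 and 327 estimated reads in WT and 566, 350 and 483 in CAP2 -/- libraries. Its usage difference was 0.60 (SE 0.38; edgeR adjusted p = 1.00). The smallest unadjusted p belonged to exon 220 of the distal Ig stretch (267 bases, chr2:76808751-76809017), with 51.4, 4 and 11 reads in WT and 70.9, 7 and 64 in CAP2 -/- libraries. Its difference was 1.58 (SE 0.67), and its shares overlapped between the groups. The next 4 in the upward direction, exons 89, 93, 215 and 235, differed by 1.11, 1.18, 1.59 and 1.35. Without CAP2 -/- replicate 1, exons 89, 93 and 215 differed by 0.50, 0.74 and 0.64, and the N2B exon by 0.39. With limma's voom the difference of exon 220 was 0.88.

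In the other direction the 5 exons with the smallest p all lay between exons 313 and 337 of the A-band. Exon 319 (294 bases, chr2:76728309-76728602) held 0.58%, 0.48% and 0.46% of the Ttn reads in WT and 0.33%, 0.26% and 0.44% in CAP2 -/- hearts. Its groups did not overlap, and its usage difference was -0.57 (SE 0.41; edgeR adjusted p = 1.00). Exons 313, 315, 323 and 337 differed by -0.50, -0.43, -0.40 and -0.49. Without WT replicate 1, exon 313 turned to 0.03, and exons 315 and 337 moved to -0.25 and -0.32. Without CAP2 -/- replicate 1, exons 323 and 337 moved to -0.20 and -0.26, and without CAP2 -/- replicate 2 exon 313 moved to -0.31.

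Apart from the N2B exon, the tested landmark exons had usage differences below their SE. As the single row with its coordinates, the kinase exon 341 held 24.1%, 24.8% and 24.3% of the Ttn reads in WT and 20.9%, 24.0% and 23.5% in CAP2 -/- hearts. Its share was lower in every CAP2 -/- library than in every WT library, with a usage difference of -0.11 (SE 0.34). With overlapping rows merged it held 26.1%, 28.1% and 27.3% in WT and 22.5%, 27.1% and 26.5% in CAP2 -/- hearts, which overlap. The longest exon 309 differed by -0.10 (SE 0.35) and the novex-3 terminal exon by -0.12 (SE 0.35). The last exon, 347 (1350 bases), differed by 0.26 (SE 0.35). Exon 346 (303 bases, chr2:76705670-76705972), known as Mex5 and alternatively spliced in muscle, held 2.10%, 2.26% and 2.04% in WT and 1.76%, 2.52% and 1.97% in CAP2 -/- hearts, a difference of -0.06 (SE 0.35). Relative to exon 345 it was read at 1.35, 1.30 and 1.32 times the density in WT and at 1.17, 1.96 and 1.59 times in CAP2 -/- hearts (exact p = 0.40). The row with the coordinates of exon 1 (118 bases) had at most 9.44 reads in a library and was not tested. With overlapping rows merged, exon 1 had 29.5, 8 and 18 reads in WT and 17, 7.32 and 9.76 in CAP2 -/- libraries. Its usage difference was then -0.40 (SE 0.93).

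The authors' estimates also divide the reads among transcripts, and the shares of the main ones overlapped between genotypes. The short cardiac transcript took 87.4%, 81.9% and 83.2% of Ttn exon reads in WT and 86.3%, 81.7% and 83.2% in CAP2 -/- hearts (exact p = 0.70). Most of these reads fall in A-band and M-band exons that this transcript shares with the longest one, so the values are not shares of isoform molecules. Exons 87 to 109, which the short cardiac transcript lacks, were read at 1.05, 1.32 and 1.11 times the density of the N2B exon in WT. Density varied along the transcript, so these ratios are not shares of isoform molecules either. The novex-3 transcript took 3.72% to 4.96% and 3.80% to 5.22%, and the longest transcript 1.01% to 1.11% and 0.303% to 1.38%, both overlapping.

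The balance of Ttn reads lay further from the 5′ end than the median of other long genes, and its genotype difference had the opposite sign. The balance is the log2 ratio of reads in the 5′ part to reads in the 3′ part of the exons, each part holding equal length. For Ttn it was -2.88, -2.55 and -2.69 in WT and -2.02, -2.50 and -2.60 in CAP2 -/- hearts (exact p = 0.20). The CAP2 -/- mean lay 0.33 above WT, and 0.15 above without CAP2 -/- replicate 1.

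Across 98 other genes with at least 8 kb of exons and 2000 reads per library, the median balance was -0.72, -0.73 and -0.81 in WT and -0.92, -1.03 and -0.85 in CAP2 -/- hearts. These groups did not overlap (exact p = 0.10), and 72 of the 98 genes had a lower balance in CAP2 -/- hearts. Over 234 genes of at least 5 kb the groups overlapped (exact p = 0.20), and the difference went from -0.18 to -0.10. CAP2 -/- replicate 1 lay 0.63 above the mean of the other 5 libraries for Ttn, a gap exceeded by 1 of the 98 other genes, whose median gap was -0.09. Taken as Ttn minus the median balance of the 98 genes in each library, it was -2.16, -1.83 and -1.88 in WT and -1.099, -1.47 and -1.75 in CAP2 -/- hearts. These values did not overlap (exact p = 0.10, the smallest possible). The subtraction was not planned in advance, and it adds up the opposite differences given above.

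Ryr2, the calcium release channel and another long gene of the cardiomyocyte, had balances of -0.36, -0.68 and -0.62 in WT and -0.93, -0.85 and -0.53 in CAP2 -/- hearts. CAP2 -/- replicate 1 was the lowest of the 6 libraries for it.

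**Figure D5:**
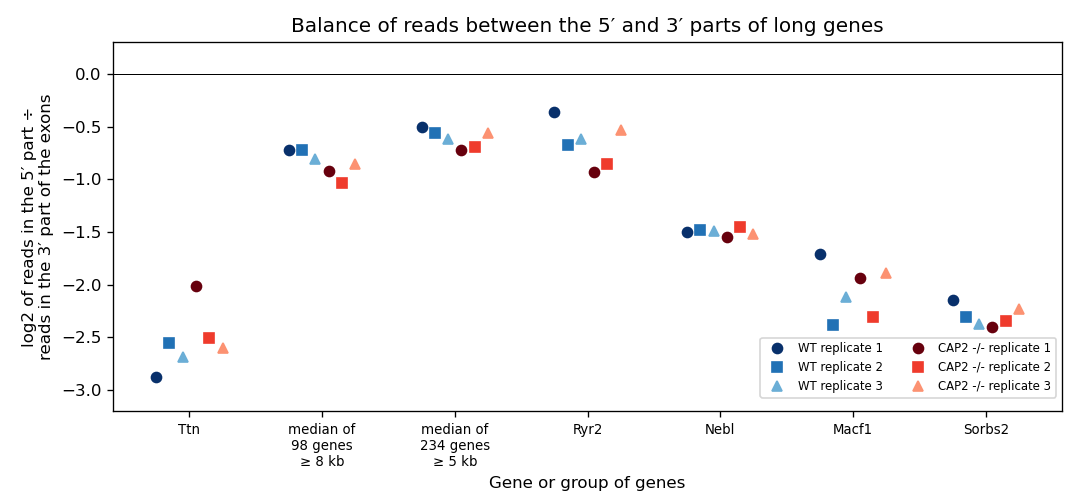
Balance of reads (y axis, log2 of 5′ over 3′ reads) for Ttn, for the median of 98 genes of at least 8 kb and of 234 genes of at least 5 kb, and for 4 named long genes, by library. The Ttn value of CAP2 -/- replicate 1 is the highest of its column, and the medians of the other long genes are lower in the CAP2 -/- libraries for the 8 kb set.

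Few genes for proteins that bind titin passed the test. Of 31 listed partners, 30 were tested; 1 rose and 1 fell, where 0.841% of all 16297 genes tested were called higher and 0.509% lower. The median log2 difference of the list was 0.04, against 0.01 over all genes tested. Ankrd1, a stress-induced ankyrin repeat protein that binds titin at N2A, rose from 1023, 914 and 872 CPM to 4089, 6160 and 4743 CPM. Its log2 difference was 2.42 (SE 0.14; edgeR adjusted p = 1.2e-07), and the groups were far apart.

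Obsl1, which encodes a cytoskeletal linker protein of the M-band, fell from 118, 124 and 119 CPM to 86.3, 64.9 and 80.6 CPM (log2 difference -0.64, SE 0.13; edgeR adjusted p = 0.0142). That call was lost when WT replicate 3 (edgeR adjusted p = 0.0563), CAP2 -/- replicate 2 (0.0996) or CAP2 -/- replicate 3 (0.0627) was left out. At the other end of the molecule, 0 of the 6 Z-disc partners were called. Csrp3, with the smallest p of these, differed by -0.18 (SE 0.11, edgeR adjusted p = 0.653). Tcap, the cap of the titin N-terminus, differed by -0.27 (SE 0.26). In the I-band, the small heat shock protein gene Hspb1 (0.41, edgeR adjusted p = 0.126) and Fhl1, a LIM protein of the N2B element (0.38, adjusted p = 0.197), did not pass the test. None of the 4 A-band partners was called. Myh7, with the smallest p of these, differed by 0.26 (SE 0.12, edgeR adjusted p = 0.459). Mybpc3, myosin-binding protein C, differed by 0.14 (SE 0.12).

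Genes that set titin splicing and phosphorylation did not pass the test. Rbm20 stood at 277, 219 and 221 CPM in WT and at 225, 199 and 222 CPM in CAP2 -/- hearts (log2 difference -0.15, SE 0.12; edgeR adjusted p = 0.749). The difference was -0.03 without WT replicate 1 and -0.10 without CAP2 -/- replicate 2. Of 16 splicing regulators, 15 were tested and 0 were called, where 0.841% of all 16297 genes tested were called higher and 0.509% lower. At those shares, 0 calls in a list this short says little about its members. The smallest p belonged to Clk1, a kinase of SR proteins, and Mbnl1, a muscleblind factor (0.43 and 0.26, edgeR adjusted p = 0.202 and 0.442). Of 8 kinases and phosphatases of titin, 0 were called, and the same shares over all genes apply. Prkg1, cyclic GMP-dependent protein kinase, which phosphorylates the N2B element, had 3.34 to 4.15 CPM in WT and 5.22 to 6.44 CPM in CAP2 -/- hearts (0.62, edgeR adjusted p = 0.366).

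The exons of 18 other genes whose splicing RBM20 controls were examined in the same way. Of 576 tested exons, 0 were called and 15 (2.604%) had an unadjusted p under 0.05 by edgeR, where 0.0295% and 2.72% of all exons did. Camk2d, a calcium-dependent kinase, had 1 such exon among 23, and Ldb3, a Z-disc PDZ-LIM protein, had 1 among 17. Ryr2 had 0 among 104. At the 0.0295% called over all exons, 0 calls among 576 says little about these genes.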

How the data were processed

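The authors deposited estimated read counts (expected counts) per gene, transcript and exon; STAR 2.6.0c, DESeq and mm10 are named in the submitters' processing notes, while the counter and its strand setting are not stated there. The log2 fold change and p-value of the authors' table are used as deposited, once. Exon reads are split among transcripts in the deposited counts and were summed over rows of identical coordinates; this sum reached 99.96% to 99.99% of the gene row. Members and gene lists were chosen with earlier results of these data known. Regions were set on the longest GENCODE vM21 transcript: Z-disc exons 1 to 28, the N2B exon, PEVK exons by composition, A-band from the first fibronectin type III motif, M-band as the last 6 coding exons. The kinase exon, the first M-band exon in the usual map, stays in the A-band under this rule. For densities, 7 rows that ran over 50 bases beyond the matching exon of the longest transcript were left out (0.332% to 0.560% of reads).

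Counts were rounded and fitted with edgeR 4.0.16 (TMM scaling, filterByExpr, quasi-likelihood, and diffSpliceDGE for exons), with Benjamini-Hochberg adjustment and a threshold of 0.05. The exon fit was also run on simulated counts that had the same fixed spread for every exon. That spread was not set from the Ttn exons, so the simulation does not bear on the 0 called Ttn exons. Shares and ratios were compared by exact two-sided permutation of the 6 libraries. Alternatives used DESeq2 1.42.0, limma 3.58.1, other filters and left-out libraries. Named exons were landmarks and, as no exon was called, the 5 with the smallest p in each direction; up to 4 members per gene list, and Rbm20. Experiment B was not used.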

Additional observations from a re-analysis of the deposited data

How the results depend on the processing

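The count of 0 called Ttn exons held in all 14 alternatives (DESeq2 size factors, voom, filters, merged or left-out overlapping rows, each library left out), while 0 to 107 exons of all genes were called. With overlapping rows left out, 0 of 51935 exons of all genes were called, so 0 Ttn calls add nothing there. The same holds with overlapping rows merged at a mean of at least 50 counts (0 of 28666). Merging overlapping rows, counting the kinase exon in the M-band, taking shares of the reads before the longest exon, and the N2B exon with exon 47 or the distal Ig exons as references were chosen after the data were seen. The blocks within regions, such as exons 48 to 86, and their local ratios were not planned in advance. Nor was the Ttn balance taken minus the median of other long genes. With rows that overlap no other, the N2B exon difference was 0.41 percentage points (0.27 in the main analysis). As shares of the reads before the longest exon, the differences were -0.13 for the Z-disc, -0.37 for the proximal Ig, 0.67 for the N2B exon, 2.01 for the middle Ig and N2A, 0.21 for the PEVK and 1.25 for the distal Ig exons. The N2BA-type difference of 0.036 became 0.0027 against the N2B exon and exon 47. By medians over exons it became 0.00091, but that ratio was 0 in WT replicates 2 and 3 and in CAP2 -/- replicates 2 and 3. A median at 0 cannot show a difference, so this alternative decides nothing. The balance of other long genes differed by -0.10 at 5 kb. Leaving out each library, usage of exon 309 ranged from -0.20 to 0.087, of exon 313 from -0.67 to 0.025 and of exon 346 from -0.19 to 0.063. With the replicate block, Ttn differed by 0.25 and 0 exons were called; libraries of the same number did not deviate together (correlations -0.17, -0.12 and -0.02), and the block changed no call on Ttn. Depth limits exons 48 to 86 and 114 to 201, most of which were too low to test.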
